A study of Homo sapiens with 32 samples.

Results

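The genes described here are 10 components of bone morphogenetic protein (BMP) and transforming growth factor beta (TGF-beta) signalling, out of 60660 genes in the table: BMP4, BMP2, ID1, ID2, ID3, SMAD6, SMAD7, FSTL3, FST and INHBA. They were picked by name, with earlier values of the same libraries in view: BMP4 because it was lower in tunicamycin, and FSTL3 because it was lower in IGF2BP2 knockout cells. Those comparisons are therefore given as descriptions without a test. For these 10 genes, tests are given for comparisons that did not enter the choice. Further genes of the pathway are tested in all comparisons, although their lists were also chosen with earlier results of these data known.

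The data are 32 poly(A)-selected RNA-seq libraries in 6 groups, all from HCT116, a human colorectal carcinoma line. All cells, the parental controls included, were the Tet-OsTIR1-PURO derivative of HCT116, which carries a doxycycline-inducible OsTIR1, a plant F-box protein used to degrade tagged proteins. IGF2BP3 or IGF2BP2, which encode RNA-binding proteins of one family, had been disrupted with Cas9 delivered on a plasmid that also carried GFP, and GFP-positive single cells were sorted and grown into clones. Tunicamycin inhibits N-linked glycosylation, which loads the endoplasmic reticulum with misfolded protein. Parental cells were 2 samples with 2 libraries each per treatment (4 in DMSO, 4 in tunicamycin). IGF2BP3 knockout was clones A3, D12 and E4, and IGF2BP2 knockout was clones B7, F6 and G6, each with 2 libraries per treatment (6 and 6 per knockout). IGF2BP3 knockout and parental cells received tunicamycin at 5 µg/mL for 4 h or DMSO alone, and no dose or time is stated for the IGF2BP2 clones. The DMSO libraries of clone G6 carry a treatment entry that reads tunicamycin, whereas their titles read control; they were used as controls. Each clone and each parental sample is called a line below, which gives 8 lines. Nothing in the labels says that the 2 libraries of a line came from separate cultures, so p-values measure the spread between these libraries, which may be technical. Libraries with the same replicate number also shared deviations across lines, as the last section gives, and the reported fits leave replicate number out.

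BMP ligands bind paired type I and type II serine/threonine kinase receptors, which phosphorylate SMAD proteins that enter the nucleus with SMAD4 and act on target genes. The ID genes, which encode helix-loop-helix proteins that cannot bind DNA and hold back their partners, are classic BMP targets, and the inhibitory SMADs, SMAD6 and SMAD7, are induced by the pathway and act back on it. Activin A, a dimer of the INHBA product, signals through a parallel branch and is bound outside the cell by follistatin (FST) and its relative FSTL3. HCT116 is known for an inactivated TGF-beta type II receptor.

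The guide sequences are shown because they set which clones share a target, which matters for the differences between clones below. Each is written 5′ to 3′ in lower case, followed by the adjacent PAM in capitals. All 4 lie in coding sequence, on the strand opposite to the gene.
IGF2BP3 clones A3 and E4: tggcaccgactgatagagctGGG
IGF2BP3 clone D12: acgcgtagccagtcttcaccAGG
IGF2BP2 clones B7 and F6: gagctgccggaggtcgtcggCGG
IGF2BP2 clone G6: aggcgtagccggacttcagcAGG
On GRCh38 the guide of A3 and E4 covers chr7:23319200-23319219 in exon 11 of 15, and that of D12 covers chr7:23469990-23470009 in exon 1. The guide of B7 and F6 covers chr3:185824895-185824914 and that of G6 covers chr3:185824837-185824856, both in exon 1 of 16 of IGF2BP2.

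The 250 bases upstream of the start site of ID1, ID2 and ID3 are shown because these paralogs are classic BMP targets and their fitted changes differed in size with tunicamycin. Sequences are from RefSeq (GRCh38.p14), 5′ to 3′ along the gene's strand, at chr20:31605039-31605288 (ID1, plus strand), chr2:8681806-8682055 (ID2, plus strand) and chr1:23559502-23559751 (ID3, minus strand). Capitals mark any match, on either strand, to GGCGCC (the GC-rich element that SMAD1 and SMAD5 bind), CAGACA (a SMAD-binding element), CCAAT or TGACG (the core of a cyclic AMP response element).
ID1: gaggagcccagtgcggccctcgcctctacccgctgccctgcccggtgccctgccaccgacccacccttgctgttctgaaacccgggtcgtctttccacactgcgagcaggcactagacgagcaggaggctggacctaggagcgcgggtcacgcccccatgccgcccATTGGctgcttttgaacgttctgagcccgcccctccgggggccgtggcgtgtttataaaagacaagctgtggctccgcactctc
ID2: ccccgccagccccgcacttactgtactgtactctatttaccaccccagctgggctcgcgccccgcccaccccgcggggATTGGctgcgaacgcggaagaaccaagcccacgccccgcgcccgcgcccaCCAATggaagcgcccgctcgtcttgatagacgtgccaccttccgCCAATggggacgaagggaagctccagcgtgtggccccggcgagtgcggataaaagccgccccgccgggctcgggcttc
ID3: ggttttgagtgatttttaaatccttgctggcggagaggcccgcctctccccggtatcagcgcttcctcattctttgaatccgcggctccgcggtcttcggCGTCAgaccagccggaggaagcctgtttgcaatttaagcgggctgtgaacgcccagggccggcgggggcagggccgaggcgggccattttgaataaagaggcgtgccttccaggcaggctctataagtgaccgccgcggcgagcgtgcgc
The ID1 window holds 1 CCAAT match, the ID2 window holds 3 and the ID3 window holds none but has 1 TGACG match. No 2 different motifs occur in any one of these windows, so none overlap. Among 35116 upstream windows of the same length, 11240 hold CCAAT, 7451 (21.2%) TGACG, 5752 (16.4%) GGCGCC and 4778 (13.6%) CAGACA. Neither SMAD element is spelled in these ID windows. Of the other genes, 1 of 3 BMP4 windows and the FSTL3 window hold GGCGCC, and another BMP4 window holds CAGACA. A match here is a match of letters, and no match says only that these letters are not in this window.

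Total counts ran from 16651438 to 24913021 per library. IGF2BP3 stood at 18.8 to 50.5 CPM (read counts scaled to library size, with TMM correction for library composition) in IGF2BP3 knockout libraries and at 61.3 to 102 in all others, and IGF2BP2 at 80.8 to 114 in IGF2BP2 knockout libraries and at 150 to 205 in all others, so reads from each targeted gene remained. HSPA5, the ER chaperone BiP, was at 775 to 1119 CPM in DMSO libraries and at 7867 to 10959 in tunicamycin libraries. The clone G6 libraries used as controls lay within that DMSO range, which goes with their titles and not with their treatment entry. Of 9 colorectal epithelial markers, 6 exceeded a mean of 1 CPM, while CDX1, VIL1 and CEACAM5 were near 0. Of 6 fibroblast markers only COL1A1 exceeded 1 CPM, and none of 7 leukocyte and endothelial markers did.

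Levels of the 10 genes spanned a wide range. Per kilobase of annotated exon in parental DMSO libraries, ID1 stood at 193 ± 7.08 CPM per kb (SD, n = 4), ID2 at 83.3 ± 2.17, BMP4 at 44.4 ± 0.894, ID3 at 18.5 ± 2.79 and FSTL3 at 10.2 ± 0.639. The inhibitory SMADs were far lower, with SMAD7 at 0.986 ± 0.148 and SMAD6 at 0.649 ± 0.0955 CPM per kb. The order of neighbours held beyond their spread down to SMAD7. With the longest annotated transcript as the length, SMAD7 was at 1.12 and SMAD6 at 1.07 CPM per kb, a difference within their spread, and BMP4 at 71.3 CPM per kb still lay below ID2 at 90.0.

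The remaining 3 genes were nearly silent and were tested in almost no comparison, because they did not pass the filter on low counts. BMP2, a close relative of BMP4, had 1 count in all 32 libraries together, where a count of 0 allows up to 0.123 to 0.189 CPM in a library by counting error alone. FST had 30 counts over the 16 DMSO libraries and 32 over the 16 tunicamycin libraries, with at most 7 in any library. INHBA had 27 counts over the DMSO libraries (6 of 16 at 0) and 76 over the tunicamycin libraries (3 of 16 at 0), with at most 12 in a library. INHBA did not pass the filter in any of the 3 comparisons of tunicamycin with DMSO, and no direction is read from these counts. BMP4 was thus the one BMP ligand of the 10 genes with appreciable RNA, and FSTL3 the one appreciable activin-binding protein. As all samples are bulk RNA, fewer cells with a transcript and less of it per cell cannot be told apart.

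Tunicamycin libraries held less BMP4 (ENSG00000125378_16, chr14:53949736-53958761, minus strand) in every line. Parental DMSO libraries had 138 and 140 CPM in sample 1 and 135 and 134 in sample 2, and tunicamycin libraries had 29.8 and 30.5, and 31.0 and 32.6. The IGF2BP3 knockout clones ran from 124 to 160 CPM in DMSO (median 136) and from 28.8 to 42.7 in tunicamycin (median 36.9). The IGF2BP2 knockout clones ran from 91.9 to 161 CPM in DMSO (median 141) and from 16.7 to 37.8 in tunicamycin (median 33.0). In all 3 genotypes the highest tunicamycin library lay well below the lowest DMSO library, so the ranges never met. The fitted log2 fold change was -2.14 (SE 0.0569) in parental cells, -1.97 (SE 0.0687) in IGF2BP3 knockout and -2.20 (SE 0.0668) in IGF2BP2 knockout, or 22.7%, 25.6% and 21.8% of the DMSO level. By line the difference ran from -2.48 in clone F6 to -1.74 in clone E4, with a median of -2.10.

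**Figure D1:**
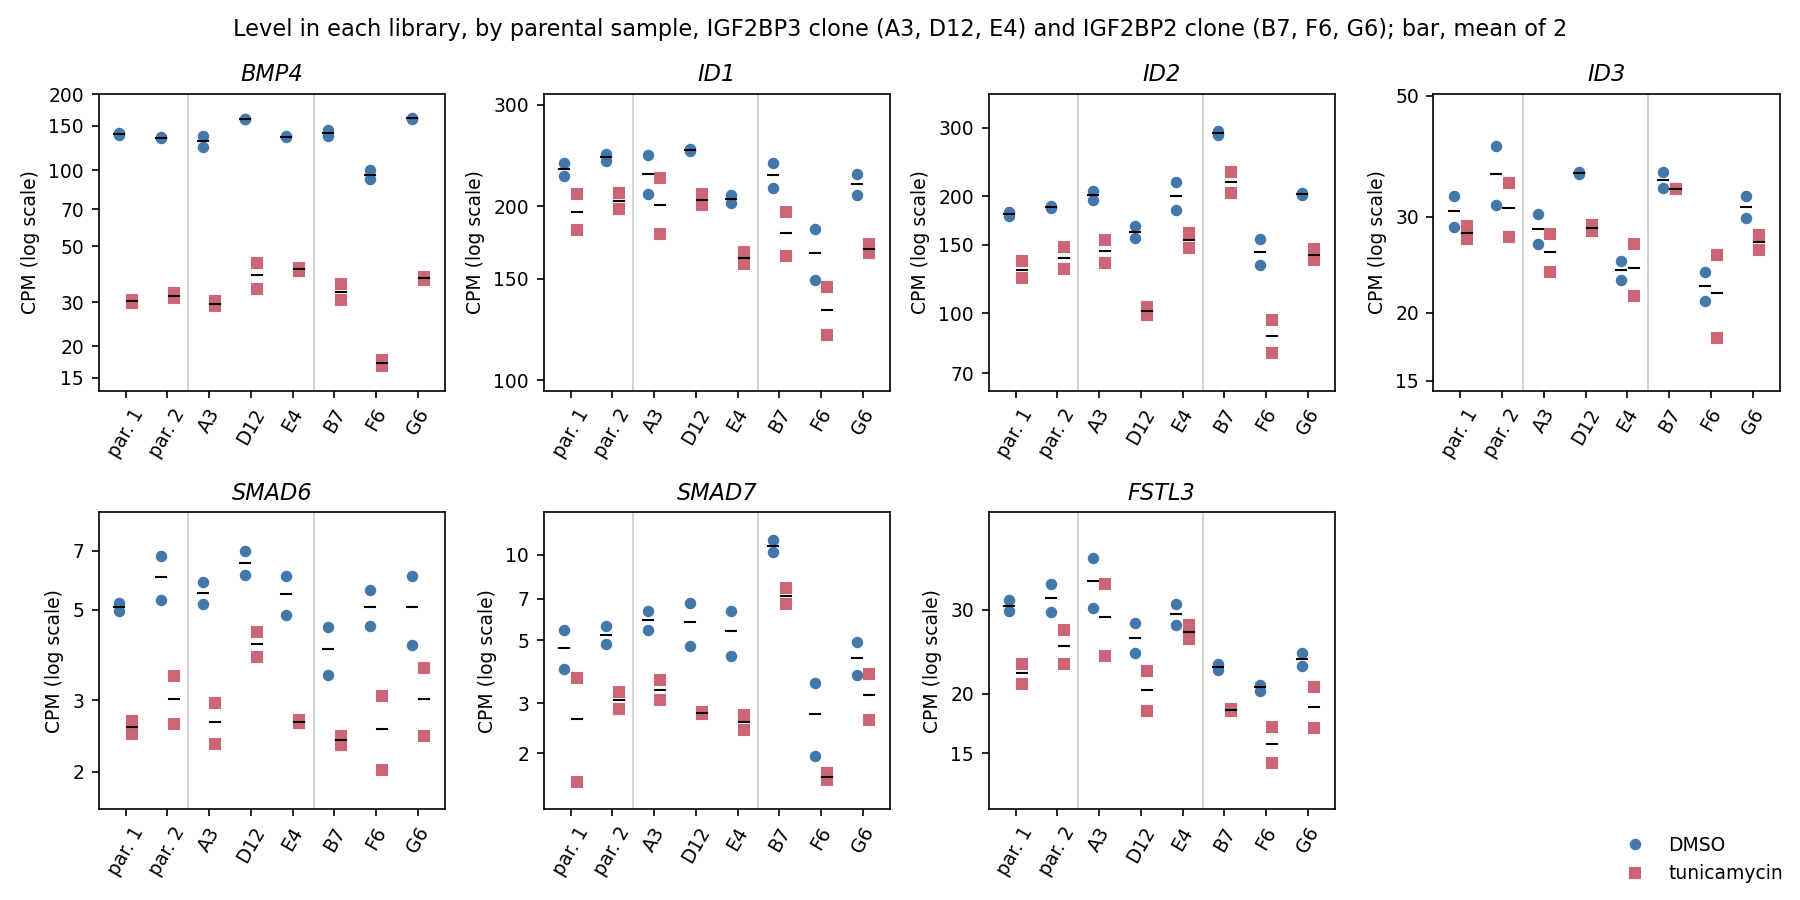
Level of the 7 measurable genes in each library (CPM, log scale), by line, with DMSO libraries as circles and tunicamycin libraries as squares; horizontal bars are means of 2 libraries. BMP4 drops from 91.9 to 161 CPM in DMSO to 16.7 to 42.7 in tunicamycin without overlap, while ID3 libraries overlap in 5 of 8 lines.

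The feedback inhibitors SMAD6 and SMAD7 were also at lower levels in tunicamycin, by less than BMP4. SMAD6, which mainly restrains BMP receptors, had 4.98 to 6.77 CPM in parental DMSO libraries (5.19 and 4.98 in sample 1, 5.30 and 6.77 in sample 2) and 2.48, 2.67, 2.62 and 3.43 CPM in the tunicamycin libraries of the same samples. SMAD7, which restrains both branches, had 3.96, 5.45, 4.84 and 5.60 CPM in DMSO and 1.59, 3.67, 2.86 and 3.29 in tunicamycin. For both genes the parental treatment groups did not overlap, narrowly so for SMAD7. SMAD6 was lower in tunicamycin in 8 of 8 lines without overlap, with differences of -1.04 (A3) to -0.66 (D12) on the log2 scale, and SMAD7 in 7 of 8, the exception being clone G6. SMAD7 rested on 27 to 245 counts per library and SMAD6 on 32 to 148, the fewest among the 7 measurable genes.

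Among the ID paralogs the fitted change was largest for ID2, then ID1, then ID3 in each genotype, an order that was not tested. The 95% intervals of neighbours overlapped in parental cells (-0.59 to -0.30 for ID2, -0.38 to -0.11 for ID1, -0.36 to 0.03 for ID3), and in clone D12 ID3 (-0.33) lay beyond ID1 (-0.28). ID2 was at 178, 182, 189 and 186 CPM in parental DMSO libraries and at 123, 136, 130 and 148 in tunicamycin, and its libraries did not overlap in any of the 8 lines. Its fitted log2 fold changes were -0.45 (SE 0.0651) in parental cells, -0.50 (SE 0.0623) in IGF2BP3 knockout and -0.53 (SE 0.0652) in IGF2BP2 knockout. ID1, the most abundant of the 3, was at 238, 226, 247 and 240 CPM in parental DMSO and at 182, 210, 198 and 211 in tunicamycin. Its log2 fold changes were -0.24 (SE 0.0606), -0.25 (SE 0.0542) and -0.32 (SE 0.0629), and only clone A3 showed overlap between treatments. ID3 was at 32.7, 28.7, 40.4 and 31.5 CPM in DMSO and at 27.3, 28.8, 34.6 and 27.6 in tunicamycin, ranges that overlap. Its log2 fold changes of -0.16 (SE 0.0867), -0.14 (SE 0.0721) and -0.08 (SE 0.0728) were the smallest of the 7 genes, and its libraries were apart in 3 of 8 lines only.

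FSTL3, the secreted activin-binding protein, was at 31.4, 29.8, 33.9 and 29.7 CPM in parental DMSO libraries and at 23.1, 21.0, 27.2 and 23.1 in tunicamycin. The log2 fold changes were -0.40 (SE 0.0682) in parental cells, -0.23 (SE 0.0852) in IGF2BP3 knockout and -0.32 (SE 0.0612) in IGF2BP2 knockout. Treatments did not overlap in 6 of 8 lines, the exceptions being IGF2BP3 clones A3 and E4. Replicate 1 libraries had more FSTL3 than replicate 2 libraries in 15 of the 16 combinations of line and treatment, by a median of 0.17 on the log2 scale.

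The choice of genes used these comparisons, so the counts that follow are descriptions from which nothing is read. Tunicamycin libraries lay below all DMSO libraries for 6 of the 7 measurable genes in parental cells (15.2% of all genes were lower without overlap), for BMP4, SMAD6 and SMAD7 in IGF2BP3 knockout (8.48%), and for BMP4 in IGF2BP2 knockout (8.70%). ID3 overlapped in all 3 genotypes. Over the alternative fits the log2 fold change of SMAD7 in parental cells ran from -1.04 to -0.59 and that of FSTL3 in IGF2BP3 knockout from -0.29 to -0.18.

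**Figure D2:**
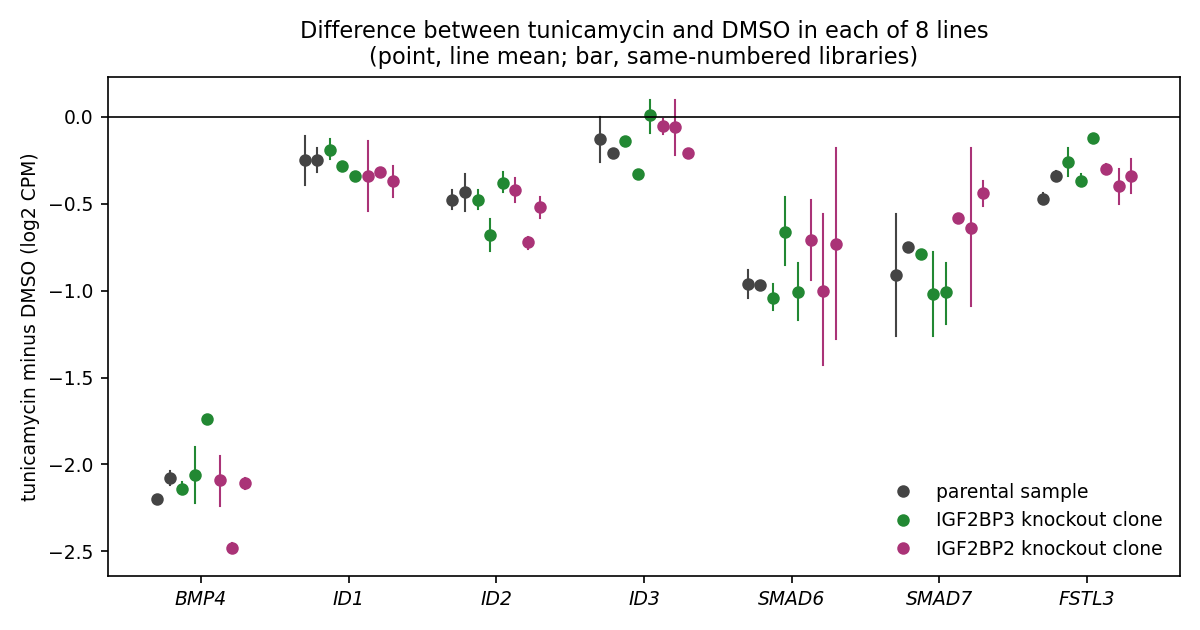
Difference between tunicamycin and DMSO (log2 CPM) for 7 genes in each of 8 lines; points are line means and vertical bars join the differences of same-numbered libraries. BMP4 lies between -2.48 and -1.74, SMAD6 and SMAD7 between -1.04 and -0.44, and ID3 between -0.33 and 0.01.

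The genes named without coordinates above lie at chr20:31605283-31606515 (ID1, plus strand), chr2:8678845-8684453 (ID2, plus), chr1:23557918-23559794 (ID3, minus), chr15:66702228-66782848 (SMAD6, plus), chr18:48919853-48952052 (SMAD7, minus) and chr19:676365-683399 (FSTL3, plus) in GENCODE 29 on GRCh38. All are protein-coding. Only ID2 shares annotated exon sequence with another gene, 38 bp (1.72% of its exons) with the antisense gene ID2-AS1.

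The wider pathway, whose genes were tested here, moved in both directions with tunicamycin. Its lists were chosen with earlier results of these libraries known, so the calls are not independent of that choice. A gene is called where its Benjamini-Hochberg adjusted p over all genes was under 0.05 in the quasi-likelihood test of edgeR. Of 84 further ligands, receptors, SMADs, antagonists, inhibitors and targets, 51 were tested in parental cells and 23 were called, 7 higher and 16 lower, against 26.8% of all genes. In IGF2BP3 knockout 25 of 49 were called (8 higher, 17 lower; 33.8% of all genes), and in IGF2BP2 knockout 28 of 49 (11 higher, 17 lower; 40.1% of all genes). The median log2 fold change of the tested list genes was -0.07, -0.10 and -0.08, beside -0.01 for all genes in each. All called ligands were lower (3 of 8 tested in parental cells, 6 of 8 and 5 of 8 in the knockouts), where 14.3%, 17.6% and 20.9% of all genes were called lower. All called receptor-regulated and common SMADs were higher (1, 2 and 3 of 6), where 12.5%, 16.2% and 19.2% of all genes were called higher; 1 of 6 in parental cells is close to that share.

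The largest falls among list genes with a mean of at least 1 CPM were those of RGMA, BAMBI, MSX1 and TGFBR3. RGMA, a BMP co-receptor, fell by 2.04 on the log2 scale in parental cells (SE 0.234, Benjamini-Hochberg adjusted p 0.000150, edgeR), from 3.82 to 4.47 CPM to 0.588 to 1.43. BAMBI, a membrane pseudoreceptor that is itself a BMP target, fell by 1.83 (SE 0.229, adjusted p 0.000263, edgeR), from 3.49 to 4.34 CPM to 0.843 to 1.62. MSX1, a homeobox BMP target, fell by 0.99 (SE 0.0647, adjusted p 3.71e-06, edgeR), and TGFBR3, the co-receptor betaglycan, by 0.71 (SE 0.191, adjusted p 0.0211, edgeR); the TGFBR3 call was lost in 4 of the fits without 1 library. All 4 were also called lower in both knockouts and were lower in 8 of 8 lines without overlap. BMPR2, the BMP type II receptor, fell by 0.31 in parental cells (SE 0.0755, adjusted p 0.0126, edgeR).

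The largest increases in parental cells among list genes with a mean of at least 1 CPM were those of CCN2, CDKN2B, TGIF1 and RGMB. CCN2, a matricellular protein, had a log2 fold change of 1.33 in parental cells (SE 0.144, adjusted p 0.000103, edgeR), 1.02 in IGF2BP3 knockout and 1.24 in IGF2BP2 knockout. CDKN2B, a cyclin-dependent kinase inhibitor, was higher by 1.24 (SE 0.102, adjusted p 1.62e-05, edgeR), and TGIF1, a SMAD corepressor, by 0.48 (SE 0.0530, adjusted p 0.000120, edgeR). Each of these 3 was higher in 8 of 8 lines without overlap. RGMB, a BMP co-receptor like RGMA, was higher by 0.45 (SE 0.0938, adjusted p 0.00550, edgeR), and in 7 of 8 lines without overlap. TGIF1 was the 1 of 10 tested intracellular and membrane inhibitors called higher in parental cells, and 3 were called lower. Of all genes 12.5% were called higher and 14.3% lower there, so 1 of 10 is close to the share of all genes. TGFBR2 was not called in any genotype (log2 fold changes 0.01, -0.06 and 0.08), and SMAD4 had log2 fold changes of 0.15 (edgeR adjusted p 0.0553), 0.10 (0.0868) and 0.14 (0.00391). The SMAD4 call in IGF2BP2 knockout was lost in 2 of 10 alternatives (no filter on low counts, and without clone B7) and 1 in parental cells was gained in 6 of 14; its interaction with IGF2BP2 knockout was -0.01 (edgeR adjusted p 1.00).

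Over the 32 libraries the genes whose log2 CPM profile lay nearest to that of BMP4, among 8833 genes with a mean of at least 10 CPM, were LRFN1, HSPA8, ZNF503, CBX2 and TGOLN2. Their mean absolute difference from BMP4, after each profile was centred, was 0.23, 0.30, 0.30, 0.32 and 0.34, beside a median of 1.05 over all genes. The mean log2 difference between tunicamycin and DMSO libraries was -2.11 for BMP4 and -1.86, -1.77, -1.62, -1.46 and -1.51 for these genes. BMP4 was chosen for that fall, which largely sets both the nearest genes and the median distance. These distances, like those for FSTL3 below, are descriptions. HSPA8, a constitutive chaperone of the HSP70 family, averaged 3467 CPM in DMSO and 1017 in tunicamycin, and TGOLN2, a protein of the trans-Golgi network, 191 and 67.3 CPM. Nearest to FSTL3 were SPINDOC (0.13), ZNF385A (0.13) and CCNQ (0.14), where the median was 0.29.

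Loss of IGF2BP3 moved none of the 7 tested genes past the threshold in the reported fits. In DMSO BMP4 stood at 137 ± 3.01 CPM in parental cells (SD, n = 4 libraries of 2 samples). It stood at 142 ± 14.4 in IGF2BP3 knockout (SD, n = 6 libraries of 3 clones). The log2 fold change was 0.05 (95% interval -0.09 to 0.18), with libraries and not clones as its units. In tunicamycin it stood at 31.0 ± 1.18 and 36.0 ± 5.90 CPM, a log2 fold change of 0.22 (-0.01 to 0.46) with an edgeR adjusted p of 0.520. In DMSO the parental libraries ran from 134 to 140 CPM, and clone A3 had 136 and 124. In tunicamycin they ran from 29.8 to 32.6, and A3 had 30.2 and 28.8. Clone D12 lay above the parental range in both treatments, at 160 and 159 CPM in DMSO, and clone E4 in tunicamycin only.

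In DMSO the ID genes differed by -0.06 (ID1, interval -0.20 to 0.07), 0.03 (ID2, -0.15 to 0.21) and -0.18 (ID3, -0.44 to 0.09), SMAD6 by 0.07 (-0.22 to 0.36), SMAD7 by 0.19 (-0.15 to 0.52) and FSTL3 by -0.06 (-0.26 to 0.14). In tunicamycin the 7 intervals lay within -0.44 (SMAD7) and 0.60 (SMAD6). None of the 7 tested genes was called in DMSO, where 1.61% of all genes were, or in tunicamycin, where 0.718% were. None of the 7 had an unadjusted p under 0.05 in either, where 13.7% and 10.3% of all genes did, and DESeq2 called 0 of them in either. With all 32 libraries in a joint fit, BMP4 was called in tunicamycin (edgeR adjusted p 0.0462).

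Of the wider list, CCN2 did differ in both treatments. In DMSO it had 19.1 and 15.3 CPM in parental sample 1 and 23.4 and 14.1 in sample 2, but 9.56 and 9.59 in clone A3, 8.60 and 8.62 in D12, and 11.3 and 10.9 in E4. The highest knockout library thus lay below the lowest parental one. In tunicamycin it had 39.6 to 54.9 CPM in parental and 14.4 to 23.5 in IGF2BP3 knockout libraries, again without overlap. Its log2 fold changes were -0.88 (SE 0.125, adjusted p 0.00329, edgeR) and -1.19 (SE 0.119, adjusted p 0.000456, edgeR). It was called in all 13 alternative fits in each treatment.

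LTBP4, which binds latent TGF-beta, was lower in DMSO (log2 fold change -0.29, SE 0.0598, edgeR adjusted p 0.0271), and so was CDKN2B in tunicamycin (log2 fold change -0.74, SE 0.154, edgeR adjusted p 0.0497); each call was lost in 7 of 13 alternatives. These were the fits without any 1 parental library, with counts summed per line, and without clones A3 or E4 (LTBP4) or A3 or D12 (CDKN2B), and adjusted p reached 0.115 and 0.184 in edgeR. With CCN2 these were 2 of 49 tested list genes in DMSO and 2 of 50 in tunicamycin, all lower, where 1.61% and 0.718% of all genes were called. TGFBR2 (log2 fold change -0.01 in DMSO, -0.08 in tunicamycin), BMPR2 (-0.04, 0.03) and SMAD4 (0.07, 0.02) were not called. Low values were not limited to IGF2BP3 knockout lines: IGF2BP2 clone F6 had 9.49 and 6.93 CPM of CCN2 in DMSO. Among the IGF2BP3 clones themselves CCN2 (adjusted p 0.0162) and CDKN2B (0.0157) also differed in edgeR's test.

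**Figure D3:**
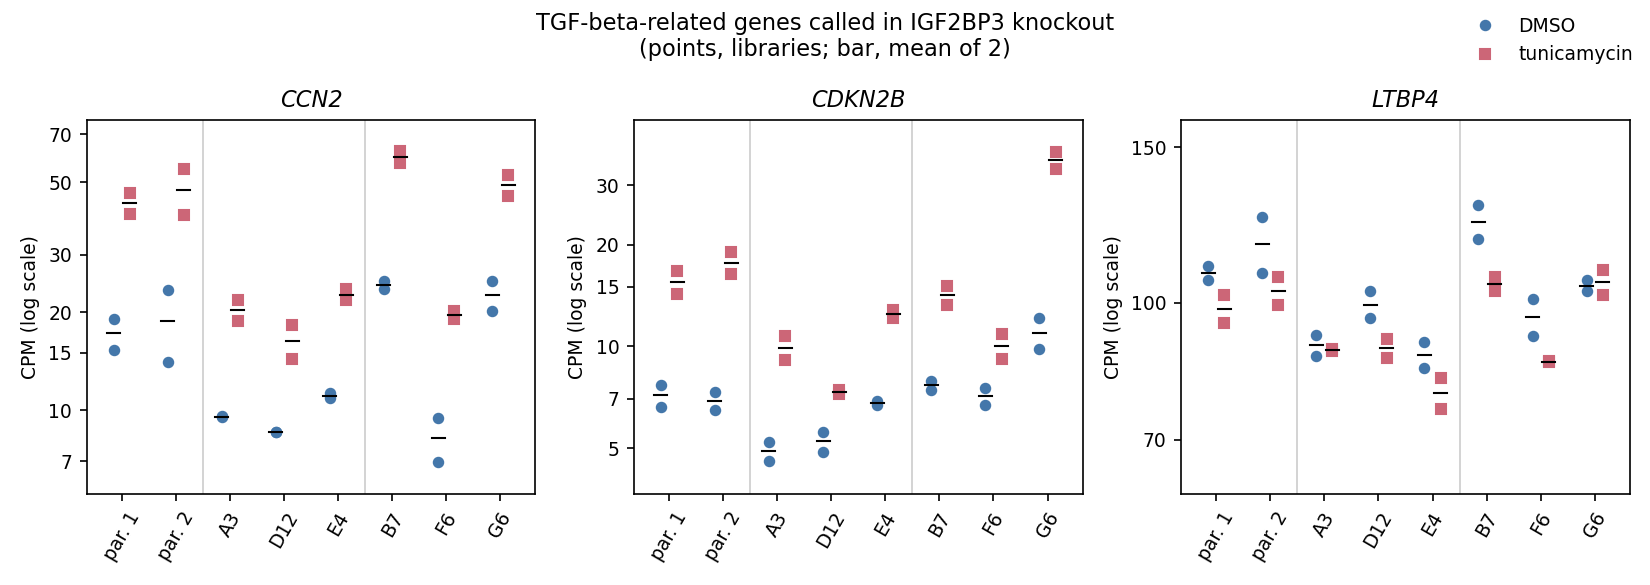
Levels of CCN2, CDKN2B and LTBP4 in each library (CPM, log scale), by line, with DMSO libraries as circles and tunicamycin libraries as squares; bars are means of 2. CCN2 in DMSO is 8.60 to 11.3 CPM in the IGF2BP3 clones and 14.1 to 23.4 in parental samples, and clone F6 lies below the IGF2BP3 clones in 1 library and among them in the other.

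FSTL3 was the gene chosen for its level in IGF2BP2 knockout, and its values are given without a test. In DMSO the parental libraries had 31.4, 29.8, 33.9 and 29.7 CPM, and the IGF2BP2 clones had 22.4 and 23.1 (B7), 20.9 and 20.3 (F6), and 24.3 and 22.9 (G6). In tunicamycin the parental libraries had 23.1, 21.0, 27.2 and 23.1 CPM, and the clones 18.6 and 18.4, 17.0 and 14.3, and 20.6 and 16.9. All IGF2BP2 knockout libraries lay below all parental ones within each treatment, by a narrow margin in tunicamycin. The log2 fold change was -0.49 (SE 0.0633) in DMSO, or 71.3% of the parental level, and -0.41 (SE 0.0985) in tunicamycin, or 75.4%.

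The FSTL3 log2 fold change in DMSO stayed between -0.53 and -0.43 in 14 alternative fits. This range describes size only, as the gene was chosen for this difference. Lower without overlap were 0.494% of all genes in DMSO and 0.811% in tunicamycin. The other 6 genes differed from parental cells by -0.24 (SMAD6) to 0.25 (SMAD7) in DMSO and by -0.31 (ID1) to 0.51 (SMAD7) in tunicamycin, and none of the 6 was apart from the parental range in all libraries. SMAD7 had the widest intervals, -0.62 to 1.12 in DMSO and -0.43 to 1.45 in tunicamycin. None of the 50 list genes tested in DMSO, nor of the 51 in tunicamycin, was called in IGF2BP2 knockout by edgeR, where 0.0137% and 0.00694% of all genes were.

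**Figure D4:**
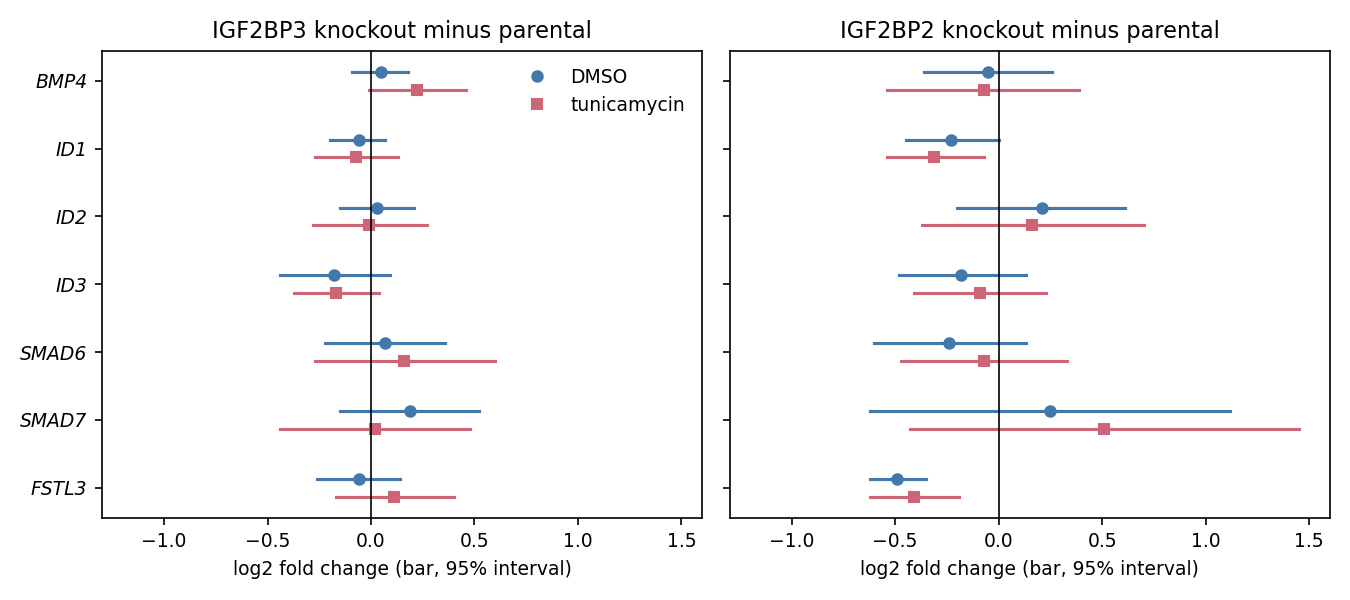
Log2 fold change of 7 genes between each knockout and parental cells, with 95% intervals, in DMSO (circles) and tunicamycin (squares). The IGF2BP3 intervals all include 0, and FSTL3 in IGF2BP2 knockout lies at -0.49 and -0.41.

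The knockouts were also compared with each other. FSTL3 was 24.3 to 38.5 CPM in IGF2BP3 and 20.3 to 24.3 in IGF2BP2 knockout DMSO libraries, with a log2 fold change of 0.43 (SE 0.0876), and 18.4 to 34.0 and 14.3 to 20.6 CPM in tunicamycin, at 0.52 (SE 0.122). Clone D12 was the IGF2BP3 clone nearest to the IGF2BP2 clones in both treatments. Of the 6 other tested genes none was called in either treatment, where 0.589% and 0.391% of all genes were. In edgeR's test the lowest adjusted p among them was 0.366 in DMSO, for SMAD6 at 0.31 (interval -0.01 to 0.62), and 0.334 in tunicamycin, for ID1 at 0.24 (0.00 to 0.47). ID1 in tunicamycin was the 1 of the 6 with an unadjusted p under 0.05, where 14.0% of all genes had one in DMSO and 14.7% in tunicamycin. DESeq2 called none of the 6, whereas a joint edgeR fit of all 32 libraries called BMP4 and ID1 in tunicamycin.

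Whether the response to tunicamycin differed between genotypes was tested directly with interaction terms, which the choice of genes did not use. For BMP4 the interaction with IGF2BP3 knockout was 0.18 on the log2 scale, a less negative response than the parental one (SE 0.0970, adjusted p 1.00 in edgeR). Its interaction with IGF2BP2 knockout was -0.06 (SE 0.0924, adjusted p 1.00 in edgeR). The difference between the knockouts was 0.24 (SE 0.0988), with an unadjusted p of 0.0238 and an adjusted p of 1.00 in edgeR. For the ID genes the interactions lay between -0.08 and 0.08, for SMAD6 between -0.09 and 0.17, for SMAD7 between -0.40 and 0.24, and for FSTL3 between 0.08 and 0.18. INHBA passed the filter in 1 of these fits, at -0.38 (SE 0.926, adjusted p 1.00, edgeR). Of the 10 genes 7, 8 and 7 were tested in the 3 interactions. None of those tested was called, where 0% of all genes were by edgeR and also 0 genes by DESeq2. At an unadjusted p under 0.05 the shares of all genes were 1.67%, 1.40% and 1.82%, and BMP4 in the comparison of knockouts was the 1 member.

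Most of the 7 measurable genes differed between clones of the same knockout. Among IGF2BP2 clones, averaged over treatments, 5 of 7 tested genes passed edgeR's test, where 26.4% of all genes did: ID2 (adjusted p 4.69e-07), BMP4 (4.06e-06), SMAD7 (5.15e-06), ID3 (0.000354) and ID1 (0.00119). SMAD6 (0.393) and FSTL3 (0.0595) did not pass, though FSTL3 did once replicate number entered the fit as a block. Clone F6 was the lowest of the 8 lines in BMP4, ID1, ID2, ID3, SMAD7 and FSTL3, in both treatments. In DMSO it had 91.9 and 100 CPM of BMP4, whereas B7 had 144 and 137 and G6 had 161 and 160. Total counts of the F6 libraries ran from 16651438, the lowest of all libraries, to 21415667; the part of depth in this was not tested.

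Clone B7 was the counterpart for 2 of these genes. It had the highest ID2 of all lines, 287 and 294 CPM in DMSO beside 133 and 155 in F6, and the highest SMAD7, 10.2 and 11.3 CPM beside 1.95 and 3.54 in F6. In tunicamycin SMAD7 was at 6.68 and 7.64 CPM in B7 and at 1.70 and 1.61 in F6, so that B7 under tunicamycin still exceeded every other line's DMSO mean. B7 also had the lowest SMAD6, 3.45 and 4.55 CPM in DMSO. B7 and F6 carry the same guide, shown above. Without B7 the SMAD7 difference among IGF2BP2 clones was no longer called (adjusted p 0.0558, edgeR), and without F6 that of ID1 was not (adjusted p 0.636, edgeR).

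Among IGF2BP3 clones 5 of 7 tested genes differed, where 7.63% of all genes did in the same edgeR test. They were ID2 (edgeR adjusted p 0.00343), ID3 (0.0181), ID1 (0.0208), BMP4 (0.0442) and FSTL3 (0.0455). SMAD6 (0.114) and SMAD7 (0.682) did not pass, though SMAD6 did once replicate number entered the fit as a block. Clone D12 had the lowest ID2 of the 3, 156 and 168 CPM in DMSO and 104 and 98.7 in tunicamycin, with the highest ID1 and SMAD6 of all 8 lines. Clone E4 had low ID3, 23.0 and 24.9 CPM in DMSO beside 36.0 and 36.3 in D12. Clone A3 had the highest FSTL3 of all lines, 38.5 and 30.3 CPM in DMSO. Left without D12, none of these 5 calls remained, and without E4 only that of ID2 did. The parental samples differed in 0 of 7 tested genes and in 0 genes overall by edgeR and by DESeq2, with 1.76% of all genes and none of the 7 at an unadjusted p under 0.05; their log2 differences ran from 0.00 (BMP4) to 0.24 (SMAD6).

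**Figure D5:**
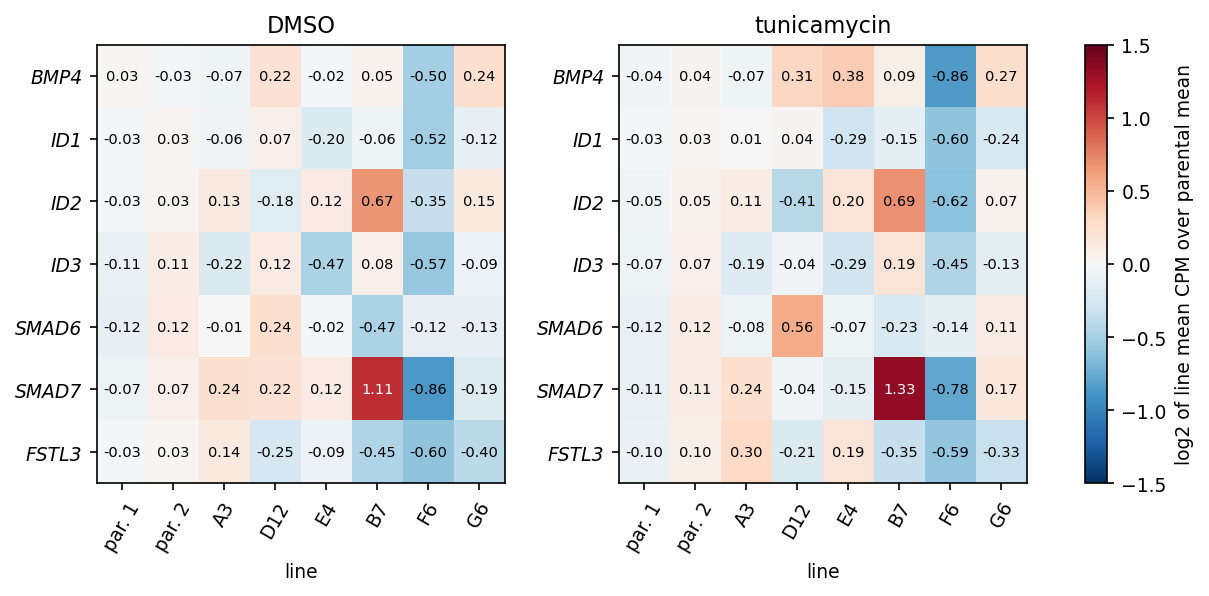
Mean CPM of each line relative to the mean of the 2 parental samples (log2; each cell is the mean of 2 libraries), for 7 genes in DMSO and in tunicamycin. Clone F6 is below parental in all 7 genes in both treatments, at -0.86 to -0.12, and clone B7 stands out in SMAD7 at 1.11 and 1.33 and in ID2 at 0.67 and 0.69.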

How the data were processed

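The authors deposited one table of raw read counts, whole numbers for each gene and library. Alignment to hg38 with STAR 2.7.5c is named in the submitters' processing notes; the counting tool, its annotation and its use of strand are not given in the sources used here. Per the labels' protocols, libraries were poly(A)-selected and made with a directional kit. Groups came from sample titles. The 10 genes and the 6 pathway lists were chosen with earlier results of these data known.

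Only the libraries of the compared groups entered each fit, made in edgeR 4.0.16 (R 4.3.3; limma 3.58.1) with TMM, filterByExpr, the quasi-likelihood test and Benjamini-Hochberg adjustment over all genes tested (threshold 0.05). The line was a covariate for treatment effects and interactions, and treatment for clone differences. Genotype differences had none, so their units were libraries and not lines. Intervals are 95% intervals, and each SE was derived from the F statistic. Levels in CPM were TMM-scaled over all 32 libraries. Positions are from GENCODE 29. The 10 genes were always named. From the lists, per comparison the 4 called genes that increased most and the 4 that decreased most, at most, were named among those with a mean of at least 1 CPM, and TGFBR2, BMPR2 and SMAD4 always. Profile likeness used log2 CPM with a prior count of 2.

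Alternatives were DESeq2 1.42.0, edgeR with the size factors of DESeq2, no low-count filter, a joint fit of all 32 libraries, sums per line, the replicate block, clone G6 controls left out, each clone or parental library left out, and the longest transcript as gene length. On simulated counts in which 200 genes were shifted by 0.5 (log2), IGF2BP3 knockout against parental in DMSO recovered 132 of 200 (14357 genes), and the IGF2BP3 interaction 85 of 200 (15036 genes). Upstream sequence for BMP2 and protein sequences were not used here. One gene of the target list is not reported here and was left out of the counts and medians of the lists; it stayed in every fit.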

Additional observations from a re-analysis of the deposited data

How the results depend on the processing

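Of 106 results on single genes, 30 were called. These include the calls for tunicamycin against DMSO and for FSTL3 between IGF2BP2 knockout and the other genotypes. Such calls rest on the values that chose the genes, so the counts here are descriptions. Of the 30, 17 held under all alternatives and 13 were lost under at least 1, while 10 others were gained under at least 1. Where the reported or the alternative fit called a result, 0 changed direction. Some results that were not called did change sign. SMAD7 between IGF2BP2 knockout and parental cells in DMSO was reported at 0.25 and ran from -0.48 to 0.59. The median log2 fold change of all genes lay no further than 0.021 from 0 in any fit that gave a fold change. The number of members called changed as follows; for tunicamycin against DMSO, and for FSTL3 between IGF2BP2 knockout and the other genotypes, it rests on the values that chose the genes and is a description. With tunicamycin 26.8% of all genes were called in parental cells, 33.8% in IGF2BP3 knockout and 40.1% in IGF2BP2 knockout. The number of members called for tunicamycin was 6 of 7 in each genotype, all but ID3. Counts summed per line made it 7, with ID3 gained in parental cells and IGF2BP3 knockout and INHBA in IGF2BP2 knockout, the size factors of DESeq2 made it 5 in IGF2BP3 knockout, and leaving out 1 library or clone gave 5 to 6. ID3 was also called in IGF2BP3 knockout without clone E4. With all 32 libraries in one fit it was 1 (BMP4) for IGF2BP3 knockout against parental in tunicamycin, 2 (ID1, FSTL3) for IGF2BP2 knockout against parental in tunicamycin and 3 (BMP4, ID1, FSTL3) for IGF2BP3 against IGF2BP2 knockout in tunicamycin, beside 0 in each as reported. That last count was 1 (FSTL3) with DESeq2, 1 with no filter on low counts and 1 with the replicate block. With counts summed per line it was 0, beside 1, for IGF2BP2 knockout against parental in DMSO and for IGF2BP3 against IGF2BP2 knockout in DMSO. Leaving out 1 clone or library gave 0 to 1 in both of these. The first was lost without B7 or without any 1 parental library, and the second without A3, E4, B7 or F6. Among IGF2BP3 clones leaving out 1 clone gave 0 to 4. The replicate block gained SMAD6 among IGF2BP3 clones and FSTL3 among IGF2BP2 clones, (adjusted p 0.0489 and 0.0213, edgeR), making 6 of 7 in each; these and the 1 above were the counts of members it changed. Deviations of same-numbered libraries correlated over 0.1 in 119 of 120 pairs of line-and-treatment combinations (median 0.375, range 0.0878 to 0.549). Libraries with the same replicate number thus shared deviations. The reported fits leave replicate number out, and the labels do not say what it stands for. Replicate 1 libraries detected 21259 to 23139 genes and replicate 2 libraries 23423 to 24267. By gene length, the longest transcript gave 71.3 CPM per kb for BMP4, 90.0 for ID2, 26.6 for ID3, 1.07 for SMAD6 and 12.3 for FSTL3. The cause of these changes was not tested. Depth limits SMAD6 and SMAD7, and BMP2, FST and INHBA are not measurable at this depth.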
